A study of Mus musculus with 2 samples.

Results

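The genes examined here build and run the primary cilium, the single non-motile antenna that most cells carry. They were taken as a list of 47 gene symbols, and all 47 were found among the 43346 mouse genes of each library's gene table. The tissue was lung of B6NCrl mouse embryos at embryonic day 14.5, and total RNA was sequenced as 2 libraries, biological replicates 1 and 2 of 1 group, so the data hold no second condition. Each sample is described as 1 lung of 1 pup and also as mixed in sex. Replicate 1 was collected on day 15 of July and replicate 2 on day 17, and each library started from 10.0 ng of RNA of more than 200 nt. The members were ordered by role into the IFT-A complex (6 genes), the IFT-B complex (12), the BBSome and its partners (10), motors (6), the transition zone (9) and the ciliary membrane with the EvC zone (4).

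A primary cilium grows from the mother centriole and has no ribosomes, so its parts are carried in. Intraflagellar transport, or IFT, moves trains of IFT-B and IFT-A particles along the ciliary microtubules, outward with kinesin-2 and back with dynein-2. The BBSome is an adaptor that links membrane proteins to the trains. The transition zone at the base acts as a gate, and the EvC zone just above it is a site of Hedgehog signal relay. In embryonic lung, Hedgehog ligand from the epithelium is received by mesenchymal cells, and the cilium is where the receptor pathway and the Gli factors are processed. RFX factors are known to control many ciliary genes through the X-box, an inverted pair of half-sites in the promoter.

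The libraries held 31940637 counts on mouse genes in replicate 1 and 33167255 in replicate 2, and the members took 0.132% and 0.131% of them. Markers of lung epithelium (4 of 4), lung mesenchyme (4 of 4) and vessel endothelium (3 of 3) were present in both libraries. The libraries differed in other ways: 4 Y-linked genes had 7072 counts in replicate 1 and 4 in replicate 2, and Xist had 19 and 27580, so neither library looked like an even mixture of sexes. Heart muscle markers were lower in replicate 2 for 5 of 5 genes, from 270 to 17.3 TPM for Myl7 and from 13.7 to 0 for Nppa. TPM, the deposited unit, is an abundance divided by transcript length and scaled to the same sum in each library. In bulk tissue, fewer cells of a type and less RNA per cell cannot be told apart.

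Promoter sequences of the members come first, because the X-box is the sequence feature for which ciliary promoters are known. RefSeq windows on GRCm38.p6, from 250 bases before to 50 after the annotated start, were matched by symbol for 42 of the 47 members, and Tmem67, Ift80, Dync2li1, Ift122 and Ift81 had no entry. The X-box, a degenerate inverted pair of 6-base half-sites with 0 to 3 bases between them, was searched on both strands. Of the 42 members, 6 held a match (14.3%), as did 474 of the 27025 genes in the same table (1.75%) and 1.86% of genes with mean TPM of 1 or more. The matches are printed along the gene strand with the X-box in capitals, and Ift57 held a pair of them.
B9d2, + strand, chr7:25680788-25680817: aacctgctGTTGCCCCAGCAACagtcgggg
Bbs1, − strand, chr19:4906605-4906634: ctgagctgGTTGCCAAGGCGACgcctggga
Ift57, + strand, chr16:49699199-49699228: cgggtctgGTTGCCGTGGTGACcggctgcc
Ift57, + strand, chr16:49699226-49699254: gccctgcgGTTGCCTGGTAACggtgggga
Kif17, + strand, chr4:138262170-138262198: tcacggagGTTGCCCAGCAACggcgaacg
Tctn1, − strand, chr5:122264411-122264432: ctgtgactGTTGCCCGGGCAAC
Tctn2, + strand, chr5:124598679-124598708: gattggagGTTACCATGGCTACtggtcctc
The match began 87 and 60 bases before the RefSeq start in Ift57, 73 before it in Kif17 and 62 before it in Tctn2, and lay just past the start in Bbs1 (1 base), B9d2 (16) and Tctn1 (36). The RefSeq start used for Kif17 lies inside the GENCODE span of the gene, downstream of its first base. All but Tctn2 carried the letters GTTGCC as the first part of the X-box.

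The letters GTTGCC, or GGCAAC on the other strand, are the best known form of a single half-site and overlap the X-box matches above. Either was present in 20 of 42 members (47.6%), against 14.1% of all 27025 genes. Among genes with mean TPM of 1 or more the share was 14.9%, and the median GC content of their windows was 60.7%, close to the 60.0% of the member windows. By role, the half-site was found in 5 of 8 transition zone genes, 5 of 10 IFT-B genes, 3 of 5 motors, 2 of 5 IFT-A genes, 2 of 4 membrane and EvC genes and 3 of 10 BBSome genes. Of the 22 half-sites, 18 lay within 100 bases of the annotated start, and 16 read forward along the gene. Much of the 300-base window itself lies within 100 bases of the start. Place and direction were not compared with those in other genes, so these counts describe the members only. The 20 members that held it had a median of 12.8 TPM and the 22 without it 14.4 TPM. A match describes these letters only, and neither binding nor accessibility was measured.

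**Figure D1:**
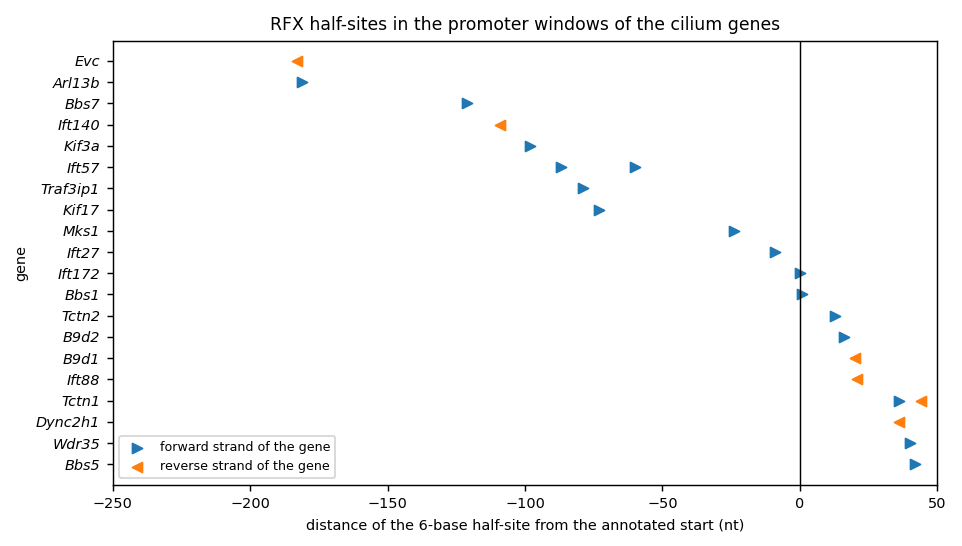
Each marker is a half-site in the promoter window of a member, placed by the distance of its first base from the annotated start in nucleotides, and pointing forward or back along the gene. The 22 half-sites of 20 genes run from 183 bases before the start to 44 after it, and 18 lie within 100 bases. Their places were not compared with those in other genes.

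All 47 members were detected, meaning TPM of 1 or more in both libraries, where 58.9% of 21474 protein-coding genes were. Detection was counted over all transcripts of a gene. In complete coding transcripts alone Kif17 had 0.40 and 0.37 TPM, under that limit, and Tctn2 and Ift22 stood at 0 by their annotation. Their median level was 14.2 TPM in each library, and 31 of 47 (66.0%) reached 10 TPM in both. Detected protein-coding genes, as the nearer reference, had a median of 20.2 TPM, and 67.4% of them reached 10 TPM. The members therefore sat in the middle range of expressed genes, and their mean levels spread 53.5-fold, from Kif17 at 1.88 TPM to Ift20 at 100.4 TPM. Below, each gene is followed by its TPM in replicate 1 and then replicate 2.

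**Figure D2:**
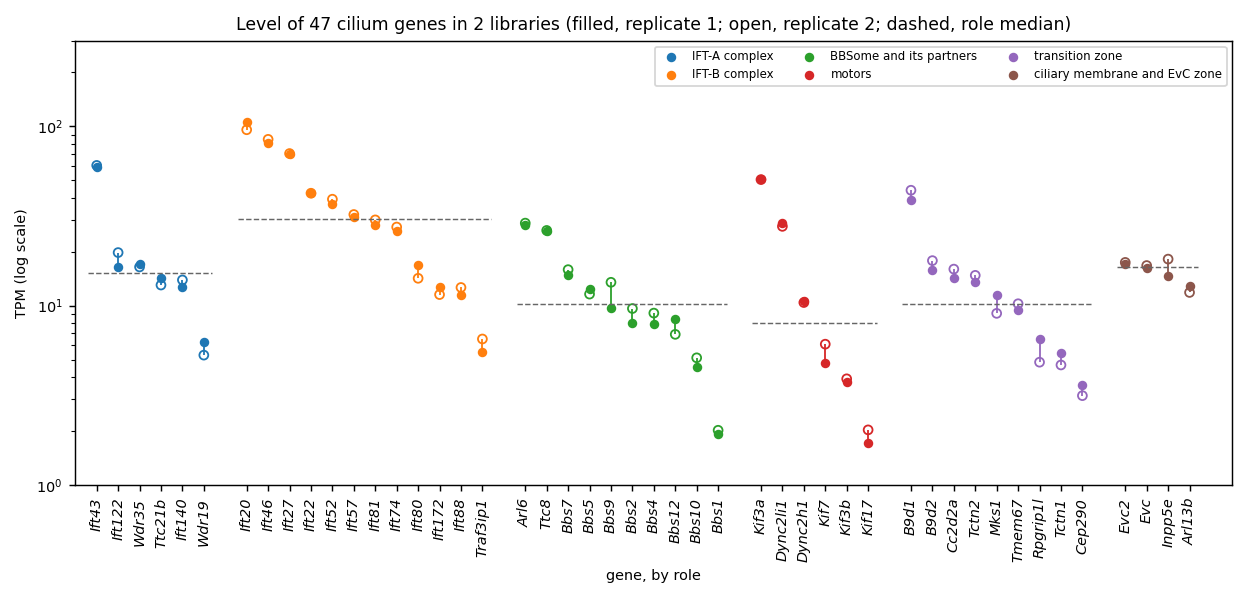
TPM on a log scale for each member, grouped by role and ordered by mean level, with replicate 1 as a filled point, replicate 2 as an open point and a line between them; dashed lines are role medians of the mean TPM. Over all transcripts IFT-B has the highest role median (30.4 TPM) and motors the lowest (8.0 TPM). Over complete coding transcripts alone the transition zone is lowest (5.98 TPM), with Tctn2 counted as 0 because it has no coding model in GENCODE M21. In the plot the points of a gene lie close together beside the spread between genes.

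The IFT-A complex drives return transport and the entry of membrane proteins, and its median was 15.2 TPM. Ift43, a small peripheral subunit, stood apart at 59.0 and 60.5 TPM. The next 4 subunits lay lower, in close pairs. Ift122, a core subunit, had 16.4 and 19.8 TPM, and Wdr35, whose protein is also called IFT121, had 17.1 and 16.4. Ttc21b, or IFT139, had 14.2 and 13.0 TPM, and the core subunit Ift140 had 12.7 and 13.9. Ift122 and Wdr35 could not be ordered, nor could Ttc21b and Ift140, but the first pair was above the second in both libraries. Wdr19, or IFT144, was the lowest at 6.27 and 5.30 TPM. Ift43 was 9.42 times the level of Wdr19 in replicate 1 and 11.4 times in replicate 2, although the proteins belong to 1 complex. Their counts were closer, 890 and 916 for Ift43 and 602 and 511 for Wdr19, and their transcripts were 775 and 4403 nt long.

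The IFT-B complex, which carries tubulin and other cargo outward, had the highest role median, 30.4 TPM, and 11 of its 12 genes reached 10 TPM in both libraries. Over complete coding transcripts alone the median was 15.6 TPM, against 13.5 TPM for IFT-A. That median counts Ift22 as 0, because its only model has a partial reading frame in GENCODE M21. The M21 model is 637 nt long and the quantified one was 911 nt, so the reading frame of the quantified model was not assessed. Ift20 (ENSMUSG00000001105, chr11:78536361-78541737, + strand) was the highest of all members at 105 and 95.7 TPM. Its product also sits at the Golgi, where ciliary membrane proteins set out. Ift46 followed at 80.3 and 84.6 TPM, and Ift27, a small GTPase-like subunit that helps the BBSome leave the cilium, at 70.3 and 70.5. The ranges of these 3 genes did not overlap. Over complete coding transcripts alone Ift46 had 42.6 and 42.5 TPM, below Ift27 and Ift43. Ift22, another GTPase-like subunit, had 42.7 and 42.4 TPM. Ift52, a central subunit of the core, had 36.7 and 39.2 TPM.

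Ift81 and Ift74 encode partners that together bind tubulin, and they had near levels, 28.1 and 30.1 TPM for Ift81 and 26.1 and 27.4 for Ift74. The ratio of Ift74 to Ift81 was 0.928 and 0.912 in the 2 libraries, over all transcripts. Over complete coding transcripts alone the order was reversed, with Ift74 at 25.9 and 27.4 TPM and Ift81 at 17.6 and 15.2. Ift57, of the peripheral group, had 31.2 and 32.2 TPM. Ift80, also peripheral, had 16.8 and 14.2 TPM, and Ift172, the largest subunit and the one linked to turnaround at the tip, had 12.7 and 11.5. Ift88, whose loss gives the classic mouse model without cilia, had 11.5 and 12.6 TPM and was the lowest of the 7 core genes. Traf3ip1, or IFT54, was the lowest of the complex at 5.51 and 6.52 TPM. The core genes had a median of 38.0 TPM and the 5 peripheral genes 15.5 TPM.

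The BBSome genes were lower, with a median of 10.2 TPM over the 10 genes and 11.6 TPM over the 7 subunits. Arl6, the small GTPase that brings the BBSome to membranes, had 28.3 and 28.9 TPM. Ttc8, the BBS8 subunit (ENSMUSG00000021013, chr12:98920574-98983238, + strand), had 26.0 and 26.3 TPM. These 2 genes stood above the rest of the group. Bbs7 had 14.7 and 15.9 TPM, Bbs5 had 12.4 and 11.6, and Bbs9 had 9.71 and 13.5; all 3 encode subunits. Bbs7 was above the others in both libraries, while the ranges of Bbs5 and Bbs9 overlapped. Bbs2 had 7.98 and 9.64 TPM and Bbs4 7.87 and 9.09, again with overlapping ranges. Bbs12 and Bbs10 encode chaperonin-like proteins that assemble the complex, and they had 8.47 and 6.92 TPM and 4.54 and 5.12 TPM. Bbs1 (ENSMUSG00000006464, chr19:4886878-4906628, − strand), the subunit that contacts Arl6, was the lowest at 1.93 and 2.02 TPM. Ttc8 was thus 13.5 and 13.0 times the level of Bbs1. In counts the gap was 1261 and 1265 against 236 and 248, and the only listed Bbs1 transcript was 5581 nt long.

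The motor genes spread 26.9-fold around a median of 8.0 TPM. Kif3a (ENSMUSG00000018395, chr11:53567379-53601967, + strand), a motor subunit of heterotrimeric kinesin-2, had 50.5 TPM in both libraries. Kif3b (ENSMUSG00000027475, chr2:153291413-153333390, + strand), its partner subunit, had 3.77 and 3.91 TPM, so Kif3a was 13.4 and 12.9 times as high. Kif3c, an alternative partner of Kif3a, was 2.14 and 2.35 times the level of Kif3b, and Kifap3, the adaptor subunit, was 7.24 and 7.33 times. Over all transcripts the dynein-2 pair showed a smaller gap. Dync2li1, the light intermediate chain, had 29.0 and 27.7 TPM, and Dync2h1, the heavy chain, 10.7 and 10.4. The 2892-nt model Dync2h1-202 held 5.12 and 4.48 TPM of the heavy chain. Its full-length models held less, 3.65 and 2.77 for Dync2h1-204 and 0.19 and 1.30 for Dync2h1-201. Over those full-length models the gap was wider. Kif7, a kinesin that acts in Hedgehog signalling at the ciliary tip rather than in transport, had 4.82 and 6.10 TPM. Kif17 (ENSMUSG00000028758, chr4:138250435-138301967, + strand), a second kind of kinesin-2, was the lowest member at 1.72 and 2.03 TPM, and its range overlapped that of Bbs1.

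The transition zone genes had a median of 10.3 TPM. B9d1, a B9-domain protein of the Meckel syndrome module, was highest at 38.8 and 44.0 TPM, and its relative B9d2 had 15.8 and 17.8. Mks1, the remaining B9-domain gene, had 11.5 and 9.06 TPM. Cc2d2a, which is needed to hold the module at the membrane, had 14.3 and 16 TPM. The secreted and membrane tectonics differed, with Tctn2 at 13.6 and 14.8 TPM and Tctn1 at 5.48 and 4.67. Tmem67, the membrane receptor-like protein meckelin, had 9.45 and 10.3 TPM. With Tctn1, the large scaffold genes were the lowest of the group: Rpgrip1l had 6.48 and 4.84 TPM and Cep290 3.59 and 3.15. B9d1 was 10.8 and 14 times the level of Cep290, over all transcripts. Counting complete coding transcripts only, B9d1 had 25.2 and 34.9 TPM, and Cep290, with 1 transcript, kept 3.59 and 3.15. On that count Tctn1, at 2.77 and 2.57 TPM, lay below Cep290.

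The 4 genes of the ciliary membrane and the EvC zone had the narrowest range, 1.4-fold between the highest and lowest means, around a median of 16.4 TPM. Evc2 and Evc encode the partners that pass the signal of Smo on towards the Gli factors. Evc2 (ENSMUSG00000050248, chr5:37338499-37425055, + strand) had 17.0 and 17.4 TPM, and Evc (ENSMUSG00000029122, chr5:37289098-37336894, − strand) 16.1 and 16.7. The ratio of Evc2 to Evc was 1.06 and 1.04 over all transcripts. Over complete coding transcripts alone Evc2 was clearly higher, at 15.3 and 16.1 TPM against 9.53 and 9.48 for Evc. The genes lie head to head with 1605 nt between their starts. Inpp5e, a phosphoinositide phosphatase of the ciliary membrane, had 14.6 and 18.2 TPM, and Arl13b, the small GTPase that brings it there, 12.8 and 11.9.

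Of the 46 pairs of neighbours in the order by mean level, 13 had ranges that did not overlap and 33 did. The pairs set apart lay mostly at the ends: the first 5 genes (Ift20, Ift46, Ift27, Ift43 and Kif3a) were each above the next in both libraries, as were Bbs10, Kif3b and Cep290 at the lower end. From Ift122 at rank 15 to Bbs12 at rank 37, no gene was apart from the one after it until Bbs12 itself. With 2 libraries an exact permutation test of 2 genes cannot go below p = 0.33, so these orders carry no test.

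Level went with transcript length among the members. Spearman's rho between mean TPM and length was −0.65 over the 47 members, against −0.28 over 12637 detected protein-coding genes. Between mean count and length it was 0.01 among the members and 0.14 among the others. The 10 members with transcripts under 1500 nt had a median of 42.0 TPM, and the 15 over 3500 nt had 12.1 TPM, while their median counts were 811 and 1284. In both sets TPM was divided by length, so these rhos share that term and are descriptions only. Detected protein-coding genes of the same lengths had medians of 41.0 and 13.3 TPM, close to the members.

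No member was called between the replicates (0 of 47), where a call needed an adjusted p under 0.05 in an exact binomial test and a ratio of at least 2-fold; 1.14% of the 14870 genes tested were called. At any size, 13 members passed the adjusted p (18 unadjusted), against a background of 22.5%. In replicate 2, 5 of these were higher (background 11.0%) and 8 lower (background 11.5%). The 5 higher genes were Ift122, Ift140, Bbs9, Kif7 and Inpp5e, and the 8 lower were Wdr19, Wdr35, Ift20, Ift80, Ift172, Bbs12, Cep290 and Arl13b. The IFT-A subunits thus appeared on both sides. With the spread between the libraries added to the counting error (edgeR's exact test, common coefficient of variation 9.57%), 0 of 47 passed, and 0 had an unadjusted p under 0.05. That spread was estimated from the same 2 libraries that were compared, so genes of typical spread had little room to pass. The same holds for this test in the related lists, where its result is no separate support.

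All 47 members lay within 1.5-fold between the libraries, and 46 within 1.25-fold. Most genes did: 94.0% of all genes tested and 97.2% of protein-coding ones lay within 1.5-fold. Within 1.25-fold the shares were 86.3% and 91.2%. Bbs12 was the member beyond 1.25-fold, with 438 and 360 counts and a log2 ratio of −0.35 (95% interval −0.55 to −0.14). Its adjusted p was 0.00603 in the exact binomial test. Kif7 had the highest ratio, from 479 to 609 counts, log2 0.28 (0.11 to 0.46), with an adjusted p of 0.00921 in the same exact test. Ift20 fell by 0.20 on the log2 scale (−0.29 to −0.10), from 1911 to 1742 counts, adjusted p 0.000545 in the exact test. Ift80 fell by 0.23 (−0.34 to −0.12), from 1359 to 1210 counts, adjusted p 0.000714 in the exact test. The median log2 ratio of the members was −0.004 and that of all genes tested −0.002, and the median size of the ratio was 0.11 among members and 0.10 among all. Heart muscle markers and sex-linked genes differed between the same libraries by far more, and their part in these small differences was not tested. The p-values measure counting error between these 2 libraries and compare no conditions.

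**Figure D3:**
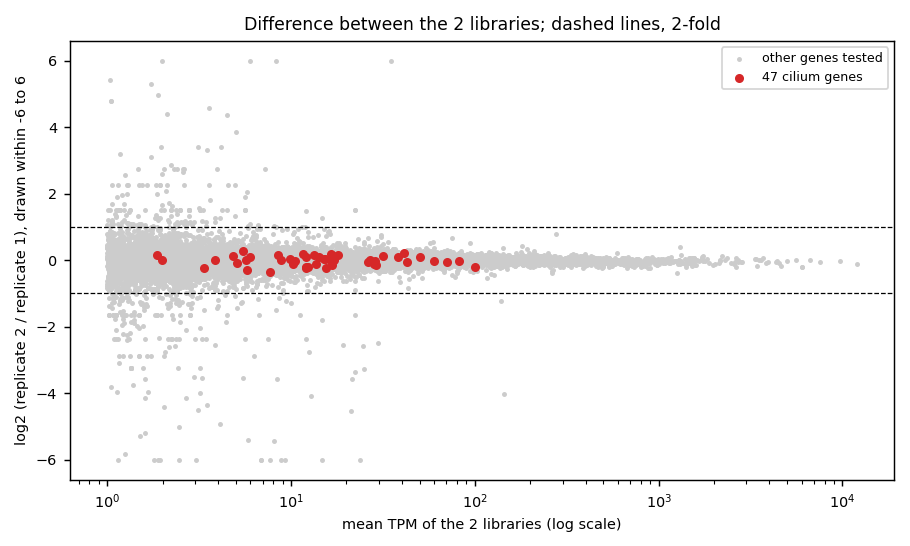
The log2 ratio of replicate 2 to replicate 1 (TMM-scaled counts, drawn within −6 to 6) against mean TPM on a log scale, for 14870 genes in grey and the members in red; dashed lines mark 2-fold. All 47 members lie between −0.35 and 0.28, inside the lines.

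The transcript tables gave the make-up of each gene. They list 221 transcripts for the members, of which 220 were found in GENCODE M21; 12 members had 1 transcript and 35 had several. The leading transcript was the same in both libraries for 44 of 47 members, and for 40 of them it was annotated as coding with a complete reading frame in both. The 12 members with 1 transcript could not differ, and of the 35 with several, 32 had the same leader. The exceptions with a changed leader were Kif3a, Traf3ip1 and Cc2d2a. In the 35 genes with several transcripts, complete coding forms took a median of 82.3% of the TPM in replicate 1 and 79.7% in replicate 2, and 89.6% and 89.2% of the counts.

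Some members had alternative coding exons whose sequences show how the forms differ, and those of 3 genes are printed with 15 coding bases on each side in lower case and the exon in capitals, from GENCODE M21 on GRCm38.
Ttc8, chr12:98937120-98937149, + strand: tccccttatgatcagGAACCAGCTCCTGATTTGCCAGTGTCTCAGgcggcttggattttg
Kif3a, chr11:53590717-53590725, + strand: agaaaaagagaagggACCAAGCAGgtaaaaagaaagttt
Arl6, chr16:59618666-59618678, − strand: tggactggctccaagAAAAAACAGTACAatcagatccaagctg
The exon of Ttc8 has 30 bases and that of Kif3a 9, so both keep the reading frame. The exon of Arl6 has 13 bases and shifts it, and the coding ends of the 2 forms then differ after 536 shared bases. They are printed from base 517 of the coding sequence to the last codon before the stop, in capitals from the first base that differs.
Arl6-201: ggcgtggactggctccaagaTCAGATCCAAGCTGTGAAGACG
Arl6-202: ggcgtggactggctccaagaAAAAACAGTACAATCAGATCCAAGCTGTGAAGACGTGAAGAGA

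The Ttc8 model without the exon, Ttc8-202 (505 codons), took 96.4% and 95.2% of the gene's TPM, and the model with it, Ttc8-201 (515 codons), 3.64% and 3.30%. At 2272 and 2270 nt the models also differ outside the exon, so the shares do not rest on its 30 bases alone. The exon is known from photoreceptors. The 45.9 and 42.1 counts of Ttc8-201 had posterior SDs of 38.6 and 33.5, so the remaining share was not told apart from 0 at this depth. Arl6 showed both ends: Arl6-201 (186 codons) took 66.9% and 72.6% of the TPM and Arl6-202 (193 codons) 30.8% and 23.6%. A longer Arl6 form is known from the eye. The counts of Arl6-202 were 283 and 222 with posterior SDs of 38.1 and 31.9, well above 0. These forms also differ in their outer exons, so the shares do not rest on the 13 bases alone.

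The level of Kif3a depended on which transcripts were included. Kif3a-206, a 770-nt model annotated for nonsense-mediated decay, led replicate 1 with 35% of the TPM and had 25.9% in replicate 2. Kif3a-203, with the 9-base exon, had 25.9% and 31.8%, and Kif3a-201, without it, 22.4% and 26.3%. In counts Kif3a-203 led both libraries, with 893 and 1100 of the gene's 1828 and 2054. Complete coding forms held 48.3% and 58.1% of Kif3a's TPM but 79.1% and 85.2% of its counts, because a short model turns few counts into much TPM. Restricted to complete coding forms, Kif3a had 24.4 and 29.3 TPM and was 6.47 and 7.50 times the level of Kif3b, in place of 13.4 and 12.9.

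Models other than complete coding ones carried much of the TPM in other members too. Of the 35 members with several transcripts, complete coding forms held under 50% of the TPM in both libraries in 4, Tctn2, Kif17, Cc2d2a and Ift57, and under 50% of the counts in both in 2, Tctn2 and Kif17. In Cc2d2a the rest included Cc2d2a-202, a 3854-nt model with a partial reading frame, at 22.0% and 31.1%. A Cc2d2a transcript not found in M21, and so without a class, had 12.1% and 34.3% and led replicate 2. Kif17-203, a retained-intron model, took 51.5% and 57.3% of Kif17's TPM, on only 36.8 and 48.7 counts. Ift57-203, with a partial reading frame, led Ift57 at 37.4% and 34.7%. In Traf3ip1 the coding form Traf3ip1-201 had 55.6% and 40.5%, and the retained-intron form Traf3ip1-202 41.1% and 53.5%. The change of leader there rested on counts of 230 and 199 for the first and 115 and 178 for the second, with posterior SDs of 18.7 to 21.3. Ift46-209, a 229-nt fragment, had 29.0% and 31.0% of the TPM on 67.5 and 76.3 counts, where Ift46-202 had 1143 and 1132. Rpgrip1l-202, a 404-nt fragment, had 40.9% and 17.4% on 18.1 and 5.75 counts.

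**Figure D4:**
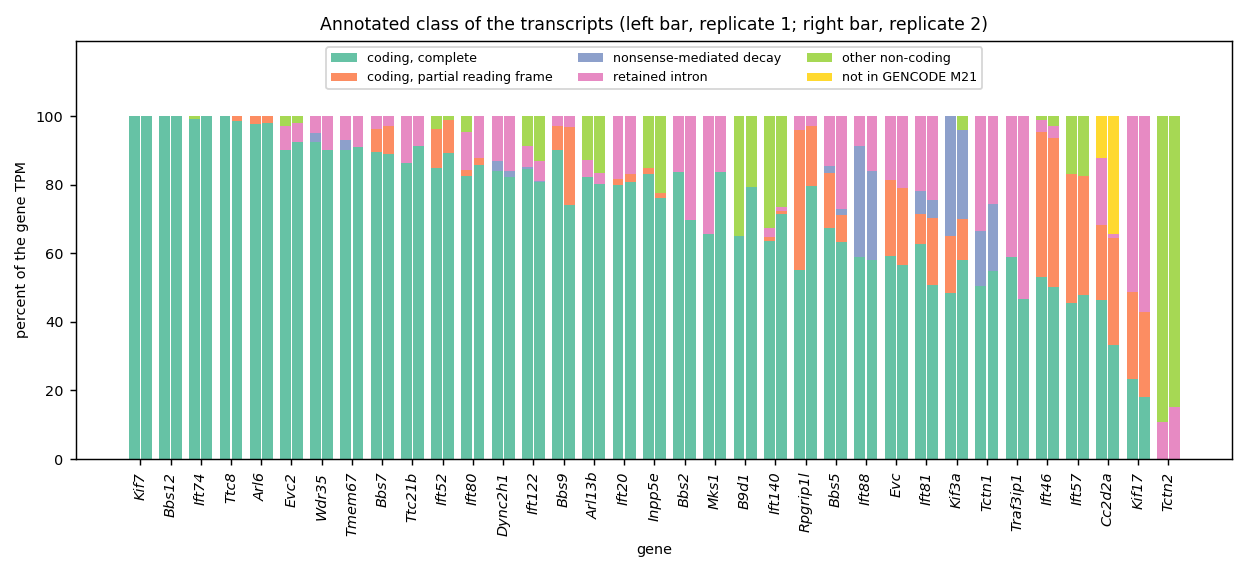
Percent of a gene's TPM in each annotated class of transcript for the 35 members with several transcripts, ordered by the share of complete coding forms, with replicate 1 as the left bar and replicate 2 as the right. Kif7, at the left, is 100% complete coding in both libraries, Kif17 is 23.3% and 18.2%, and Tctn2, which has no coding model in GENCODE M21, is at 0.

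For 3 members the annotation itself set the class. Every Tctn2 transcript is non-coding in M21, and its leading model Tctn2-207 (70.9% and 74.8%) differs from Tctn2-201 by 1 base, at position 124624335 of chromosome 5. The only Ift22 model of the tables has an incomplete reading frame in M21, where it is 637 nt long against 911 nt as quantified. Of Dync2h1, the full-length models Dync2h1-204 (14264 nt) and Dync2h1-201 (13972 nt) share a coding length of 12918 nt. Dync2h1-204 had 1153 counts (posterior SD 118) in replicate 1 and 880.0 (SD 223) in replicate 2, and Dync2h1-201 had 57.4 (SD 115) and 404 (SD 220), so their split was clear in replicate 1 and uncertain in replicate 2. Dync2h1-202, a complete coding model of 2892 nt, had 47.9% and 43.0% of the TPM, but 319 and 280 of the gene's 1686 and 1727 counts.

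The rest of the ciliary machinery was read from lists of related genes (88 matched), of which 0 of 72 tested were called between the libraries. Of 16 other subunits of the trains and motors, 15 were detected, and the median was 19.8 TPM; 2 of 15 tested passed the adjusted p in the exact test, both lower in replicate 2 (background 11.5%), and 0 passed in edgeR's exact test, with 0 unadjusted. Dynll1 and Dynlrb1, dynein light chains that cytoplasmic dynein also uses, were highest at 1266 and 1264 TPM and at 311 and 322, followed by Lztfl1, a BBSome regulator, at 33.8 and 34.3. Wdr60, a dynein-2 intermediate chain, had 6.21 and 5.89 TPM, and Ttc30a2 was lowest at 0.11 and 0.27.

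All 15 other transition zone and inversin genes reached the detection limit, and their median was 13.5 TPM. Tmem216 had 44.7 and 47.4 TPM, Tmem107 42.5 and 41.1 and Tmem237 35 and 34.3, all membrane proteins of the gate, while Nphp4 had 2.53 and 3. Anks6, of the inversin compartment, had 2.45 and 3.86 TPM. It was the 1 gene of these 15 past the adjusted p (0.000773 in the exact test), higher in replicate 2 (background 11.0%). By edgeR's exact test 0 of the 15 passed, and 1 had an unadjusted p under 0.05. The 12 centriole genes were likewise all found, at a median of 18.3 TPM; Odf2, Cep89 and Fbf1, appendage proteins, were highest at 50.1 and 58.1, 38.1 and 40.5, and 24.1 and 28.4 TPM. Ofd1, a centriolar satellite protein, had 7.19 and 6.46 TPM and Ttbk2, the kinase that starts ciliogenesis, 3.50 and 4.38. Of these 12 genes, 2 passed the adjusted p upward and 1 downward, against backgrounds of 11.0% and 11.5%, and 0 passed in edgeR's exact test, where 0 had an unadjusted p under 0.05.

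Of 18 genes of ciliary cargo and membrane signalling, 17 were detected, and the median was 18.2 TPM. Arl3, which releases lipidated cargo inside the cilium, had 61.1 and 68.2 TPM. Smo, the Hedgehog signal transducer, had 46.3 and 53.4, and Pde6d, a carrier of lipidated cargo, 45.2 and 47.2. Gpr161, a negative regulator of Hedgehog signalling, had 1.08 and 1.14 TPM, and the somatostatin receptor Sstr3 of neuronal cilia was at 0 and 0.07, on 0 and 6 counts. In this list 7 of 17 genes passed the adjusted p upward in replicate 2 and 0 downward, against backgrounds of 11.0% and 11.5%; the 7 were Unc119b, Adcy3, Pkd1, Iqce, Smo, Sufu and Gli3. Their log2 ratios ran from 0.09 for Gli3 to 0.36 for Adcy3. In edgeR's exact test 0 of the 17 passed, and 1 had an unadjusted p under 0.05.

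Genes of motile cilia were a contrast. Only 7 of 20 were detected, with a median of 0.598 TPM, where all 47 members were. Tppp3 had 32.4 and 34.3 TPM, but its product is a microtubule protein of other cells as well. Tekt1 had 5.11 and 4.96 TPM and Ccno, a factor of centriole multiplication, 4.06 and 3.75. Dnah5, an outer-arm dynein, had 0 and 0.01 TPM, and Sntn was at 0 in both, where 3 counts correspond to 0.0939 and 0.0905 CPM of mouse gene counts. Foxj1 and Mcidas, regulators of motile and multiple cilia, had 1.63 and 1.03 TPM and 1.71 and 0.91 TPM. They were the 2 of 8 tested genes that passed the adjusted p in the exact test, both lower in replicate 2 (background 11.5%), by log2 ratios of −0.72 and −0.96, short of 2-fold. In edgeR's exact test 0 of the 8 passed, and 2 had an unadjusted p under 0.05. The share with a half-site was 9 of 16 in this list, near the share of the members.

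Of the RFX factors 5 of 7 were detected. Rfx7 had 13.4 and 14.5 TPM, Rfx3, the factor best known from ciliary genes, 11.7 and 11.7, and Rfx5, known from antigen presentation, 10.1 and 9.46. Rfx6 was at 0 and 0.10 TPM and Rfx4 at 0.03 and 0. None of the 5 tested passed the adjusted p.

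**Figure D5:**
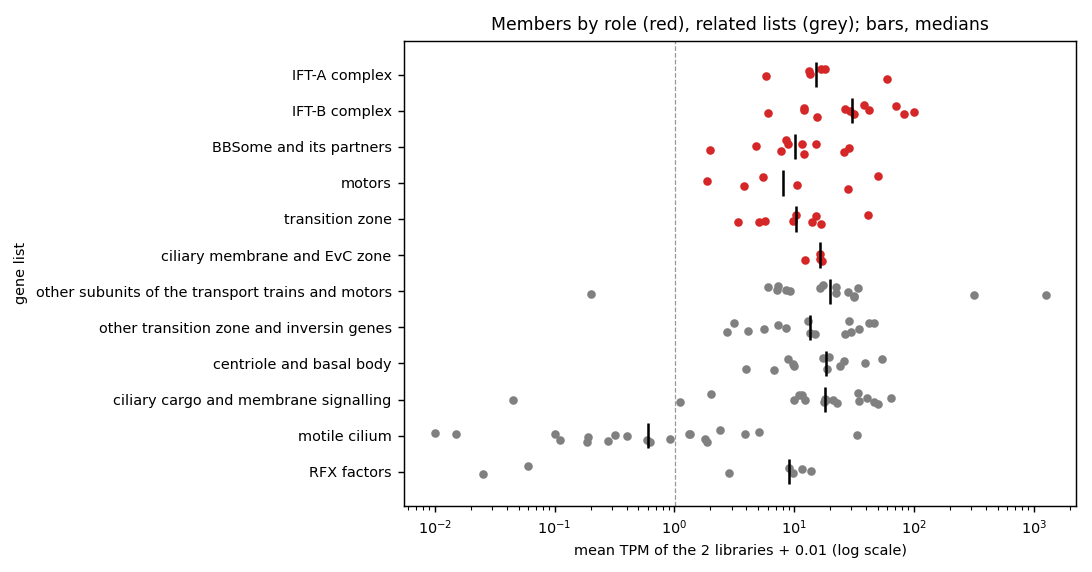
Mean TPM of the 2 libraries plus 0.01, on a log scale, for each gene of the member roles (red) and the related lists (grey), with a bar at the median and a dashed line at TPM of 1. The member roles lie between 1.88 and 100.4 TPM, and the motile cilium list has its median at 0.598 TPM.

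Several members lie close to, or share exons with, other genes. Of the 47 members, 8 (17.0%) begin within 1000 nt of a protein-coding gene that runs the other way, as do 6.77% of protein-coding genes. Both shares leave out pairs that overlap head to head at their starts. The closest were Ift20 and Tnfaip1, 29 nt apart, Ift46 and Arcn1 at 63 nt, and Dync2h1 and Dcun1d5 at 74 nt. The partners' levels ranged from 6.72 TPM for Cramp1l, beside Ift140, to 182 TPM for Arcn1. Exons of 10 members overlapped those of another gene, in 3 cases by 10% or more: Inpp5e with Pmpca (20.3% of its exons), Kif7 with 9330171B17Rik (19.1%) and Tctn1 with Hvcn1 (19.0%). All 3 partners are on the other strand. The strand setting of the counting is not stated in the labels or headers, so reads of these pairs may not be told apart. Pmpca had 4353 and 4761 counts where Inpp5e had 1128 and 1330, and both were higher in replicate 2.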

How the data were processed

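For both libraries the authors deposited tables by gene and by transcript, with expected counts (estimated and not always whole), TPM and posterior mean TPM, per the file headers. The deposited transcript tables further list each transcript's percent of its gene's TPM. Per the deposited read-me files the build is mm10 with GENCODE M4; aligner, quantifier and strand setting: not given in the sources used here. Symbols, coordinates (1-based, GRCm38) and transcript classes came from GENCODE M21 by unversioned identifier.

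Expected counts were rounded and scaled by TMM (edgeR 4.0.16, R 4.3.3) over 14870 genes with mean TPM of 1 or more. Each gene's counts were tested by an exact two-sided binomial test with Benjamini-Hochberg adjustment over all 14870 genes; ratios added 0.5 to each count, and intervals (95%) cover counting error only. Other scalings included DESeq2 1.42.0 size factors. Complete coding means protein_coding in M21 with no incomplete end. The members and lists were chosen with earlier results of these data known. Every member was named; of each related list, the 3 highest and 2 lowest by mean TPM, and any called gene. Kif3c, Kifap3, Foxj1, Mcidas, the genes passing the adjusted p at any size and the neighbouring genes were added after their values were seen.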

Additional observations from a re-analysis of the deposited data

How the results depend on the processing

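No member was called under DESeq2 size factors, total counts, spike-in scaling, all genes with a count, a 1.5-fold limit or edgeR's exact test. In that order, 1.14%, 1.15%, 1.95%, 2.2%, 2.68% and 0.71% of all genes tested were called. At such low shares few or no calls would arise in a set as small as the members. The absence of calls therefore says little about them. With no fold limit 13 members were called, as were 22.5% of all genes tested. Spike-in scaling moved the median log2 ratio of all genes by 0.34, and 40 members then passed the adjusted p upward. The median log2 ratio was then 0.341 for all genes and 0.338 for the members, so the members moved with all genes. The share of all genes passing at any size under that scaling was not counted. Detection fell to 45 at TPM of 2 and 39 at TPM of 5. The median level of 14.2 TPM was 14.3 with posterior mean TPM, 15.7 after rescaling over mouse genes, 9.505 over complete coding transcripts (an alternative chosen after seeing the data, with Tctn2 and Ift22 at 0), and 14.2 to 14.21 when leaving out 1 replicate. Rescaling gave role medians of 16.9 (IFT-A), 33.7 (IFT-B), 11.3 (BBSome), 8.88 (motors), 11.4 (transition zone) and 18.2 TPM (membrane and EvC). Complete coding transcripts gave 13.5, 15.6, 8.18, 7.11, 5.98 and 11.5 TPM in the same order, with Ift22 in IFT-B and Tctn2 in the transition zone counted as 0. On that count IFT-B was still highest, by a smaller margin over IFT-A, and the transition zone took the lowest place from motors. Posterior mean TPM gave 15.6 for IFT-A. Leaving out 1 replicate gave 15.18 to 15.32 for IFT-A, 29.62 to 31.15 for IFT-B, 9.09 to 10.62 for the BBSome, 7.75 to 8.26 for motors, 10.25 to 11.46 for the transition zone and 15.38 to 17.09 for the membrane and EvC genes. The same leading transcript was found for 45 members by posterior mean TPM. Both half-sites together were in 2.38% of member promoters (0.611% of all) and the X-box, searched after seeing the data, in 14.3%; against protein-coding or expressed genes the background of the half-site was 14.4% and 14.9% in place of 14.1%. No paired analysis was possible because there is only 1 group.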

Other observations

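For 10 of the 47 members the TPM ratio and the count ratio of the libraries had opposite signs. Deposited TPM shares a sum with the spike-ins, which took 4.94% of counts in replicate 1 and 3.96% in replicate 2, and the median gap between the log2 TPM ratio and the log2 count ratio was 0.06. In 5 members the gap exceeded 0.2: Rpgrip1l, Bbs9, Bbs2, Ift81 and Mks1. Rpgrip1l, a transition zone scaffold, had the widest, with TPM of 6.48 and 4.84 but counts of 588 and 613, and its effective length, by which counts are divided, was 4067 nt in replicate 1 and 5656 nt in replicate 2. Ift81 had 28.1 and 30.1 TPM but 1291 and 1219 counts, and Bbs2 went from 7.98 to 9.64 TPM on 436 and 454 counts. Mks1 had 11.5 and 9.06 TPM on 492 and 471 counts, with Mks1-203, a retained-intron model of 688 nt, at 20% and 0% of its TPM. In TPM, 4 members differed by 1.25-fold or more, where 1 did in counts.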
